A study of Mus musculus with 8 samples.

Results

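The 41 genes described here encode the machinery that copies DNA in S phase and divides cells in mitosis. They were measured in RNA from the brains of 8 mice at postnatal day 7 (P7), an age at which some forebrain progenitors still divide while neurons do not. A gene was included when its symbol in the table of read counts equalled a listed name, and all 41 were found among the 24015 entries of the table. Of them, 26 act in G2 and mitosis and 15 in G1/S and DNA replication. All 41 reached 1 CPM (counts divided by the effective library size) in 1 library or more, the filter that left 15588 genes for testing.

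Dividing cells switch these genes on in order. In late G1, E2F transcription factors are released from the retinoblastoma family of proteins and induce cyclin E (*Ccne1*, *Ccne2*), the loaders and subunits of the MCM helicase (*Cdc6*, *Cdt1*, *Mcm2* to *Mcm7*), the replication clamp *Pcna* and the enzymes that make deoxynucleotides (*Rrm2*, *Tk1*). In G2 the MuvB complex, with B-Myb and FOXM1, induces the mitotic genes through a promoter element called the cell cycle genes homology region (CHR), and in resting cells the same complex helps to keep them off. At P7 in the mouse forebrain, dividing cells are known in the subventricular zone, in the dentate gyrus and among glial precursors.

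The study asked what the loss of 1b, a conserved non-coding interval of the sodium channel gene *Scn1a*, does to the mouse brain. All mice were P7 C57BL/6N, from a single deletion line made with Cas9. The 2 WT mice (0 deleted alleles) were male, the 4 1b+/- mice (1 deleted allele) were male in replicates 1 and 2 and female in replicates 3 and 4, and the 2 1b-/- mice (2 deleted alleles) were female, so sex and genotype cannot be told apart between WT and 1b-/-. The labels name the tissue as hippocampus and the methods of the study as forebrain. The forebrain gene *Emx1* (6.49 to 17.4 CPM) was detected in every library, which does not separate these names. *Scn1a* itself was 40.5 and 45.2 CPM at the lowest and highest in WT, 15.7 to 26.7 CPM in 1b+/- and 2.0 and 3.18 CPM in 1b-/-, so each genotype label matched the level of the targeted gene.

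Total counts ran from 2947770 (1b+/- replicate 4) to 20878772 (1b+/- replicate 3). Between 0.180% and 0.328% of the counts in each library fell on the 41 genes. The smallest count of any of them in any library was 6, for *Gins2*, and the smallest of any mitotic gene was 26. CPM values below are scaled by TMM, a factor per library that corrects for composition.

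Promoter sequences show how the mitotic and S-phase genes differ in sequence. Promoters from 250 bases before to 50 bases after the start of transcription were read from RefSeq (GRCm38.p6) for 22 of the 26 mitotic genes and 12 of the 15 S-phase genes. A CHR, searched as TTTGAA or TTCGAA on both strands, lay in the promoters of 17 of 22 mitotic genes (77.3%) and 2 of 12 S-phase genes (16.7%), against 19.2% of all 32851 promoters and 21.7% of the 27025 genes they belong to. An E2F element, searched as TTTCCCGC, TTTGGCGC, TTTCGCGC or TTTGCCGC on both strands, lay in the promoters of 1 of 22 mitotic genes (4.55%) and 7 of 12 S-phase genes (58.3%), against 2.27% of all promoters. With its leading T dropped, the E2F element lay in 4 of 22 and 8 of 12, against 9.57% of all promoters. A CCAAT box (CCAAT, both strands), bound by NF-Y, was frequent in both, in 19 of 22 and 8 of 12, against 37.4% of all promoters. Counted by gene, the shares of the 27025 genes were 2.605% for the E2F element, 10.86% with its leading T dropped and 41.06% for the CCAAT box. All 17 mitotic genes with a CHR also had a CCAAT box. Among the promoters of the 34 genes, a CHR match shared letters with a CCAAT match in 1 and with an E2F match in 0, and a CCAAT match shared letters with an E2F match in 1.

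**Figure D1:**
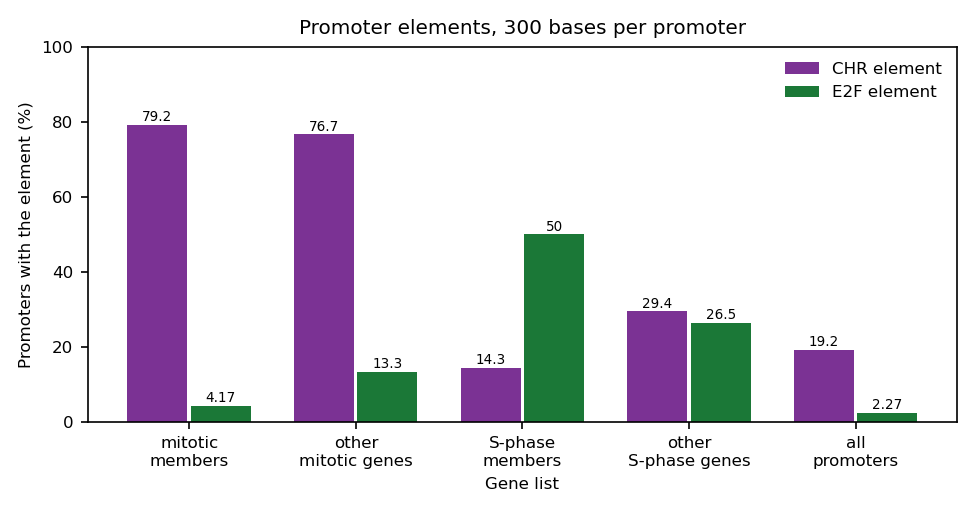
Share of promoters (%), each promoter counted once where a gene has more than 1, holding a CHR or an 8-letter E2F element, for the 26 mitotic and 15 S-phase genes, for other genes of the same phases and for all RefSeq promoters. The CHR bars are high for both mitotic lists (79.2% and 76.7% of promoters) and the E2F bar is highest for the S-phase genes (50%), above 2.27% of all promoters.

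Windows of 30 bases, on the strand of the gene, show the CHR in 5 mitotic genes whose values are given below. The capitals mark the CHR, which reads TTCAAA where the match is on the opposite strand.
Mki67, chr7:135716460-135716489, minus strand: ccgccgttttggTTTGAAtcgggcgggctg
Top2a, chr11:99024195-99024224, minus strand: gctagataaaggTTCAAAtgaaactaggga
Cdk1, chr10:69352913-69352942, minus strand: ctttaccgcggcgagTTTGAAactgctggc
Kif11, chr19:37376351-37376380, plus strand: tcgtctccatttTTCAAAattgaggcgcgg
Bub1b, chr2:118598011-118598040, plus strand: tctctccctgggTTCGAAggcttgtcttag

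The element began 98 bases before the start in *Mki67*, 23 in *Top2a*, 15 in *Cdk1*, 19 in *Kif11* and 188 in *Bub1b*. *Cdk1*, the kinase that drives entry into mitosis, was the only one of the 22 mitotic genes whose promoter also held the 8-letter E2F element. The S-phase promoters with the E2F element were those of the helicase subunits *Mcm3*, *Mcm5*, *Mcm6* and *Mcm7* and of *Cdc6*, *Cdt1* and *Uhrf1*. *Mcm2* had a CHR without the 8-letter E2F element, and *Ccne1*, *Pcna*, *Rrm2* and *Tk1* had neither. In the next windows the capitals mark the E2F element (its reverse complement begins with GCG) or, for *Mcm2*, the CHR.
Mcm5, chr8:75109349-75109378, plus strand: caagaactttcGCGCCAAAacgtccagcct
Mcm6, chr1:128359734-128359763, minus strand: gattggacgggTTTGGCGCgaagtagctca
Mcm7, chr5:138172030-138172059, minus strand: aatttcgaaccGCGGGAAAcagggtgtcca
Cdc6, chr11:98908002-98908031, plus strand: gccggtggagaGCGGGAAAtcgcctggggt
Mcm2, chr6:88898833-88898862, minus strand: agggctcagcctTTTGAAagctgtgggcgg

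A match of these letters is a description and does not show that a factor binds there. *Mcm7* held both elements next to each other, its CHR beginning 173 and its E2F element 165 bases before the start. The same search over genes of each phase outside the 41 gave a CHR in 23 of 30 other mitotic genes and 9 of 29 other S-phase genes, and the 8-letter E2F element in 4 of 30 and 9 of 29.

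Levels per kilobase of exon were of the same order in both phases, with a median of 7.66 CPM per kb for the mitotic genes and 9.83 for the S-phase genes. *Mki67*, which encodes the proliferation marker Ki-67, was the highest of all at 37.4 CPM per kb. *Mcm4*, a subunit of the replicative helicase, was the highest S-phase gene at 25.3, and *Tk1*, thymidine kinase, the lowest at 0.332. *Ccnb1*, the cyclin that activates CDK1 in mitosis, was the lowest mitotic gene at 3.04.

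No cell cycle gene passed the test between genotypes. In 1b+/- against WT, 0 of 41 passed an adjusted p of 0.05 (edgeR quasi-likelihood test, Benjamini-Hochberg), against 13 of 15588 genes (0.0834%). When 1b-/- mice were set against WT or against 1b+/- mice, 0 of 41 passed, against 1 gene in each (0.00642%). That gene was *Scn1a* in both. *Scn1a* itself did not pass in 1b+/- against WT (log2 fold change -0.9 ± 0.21 SE, adjusted p = 0.381, edgeR quasi-likelihood). Nor did it pass with the number of deleted alleles (adjusted p = 0.0672, edgeR quasi-likelihood). In the model with the number of deleted alleles 0 of 41 passed, against 0.0385% of genes, and between female and male 1b+/- mice 0 of 41 passed, against 0.0321%. At an unadjusted p under 0.05 there were 2 of 41 in 1b+/- against WT (4.34% of all genes), *Birc5* and *Cdt1*, 0 between 1b-/- and WT (1.64%) and 0 between 1b-/- and 1b+/- (1.23%). The likelihood ratio test of edgeR and the Wald test of DESeq2 also called 0 of 41 in each comparison.

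**Figure D2:**
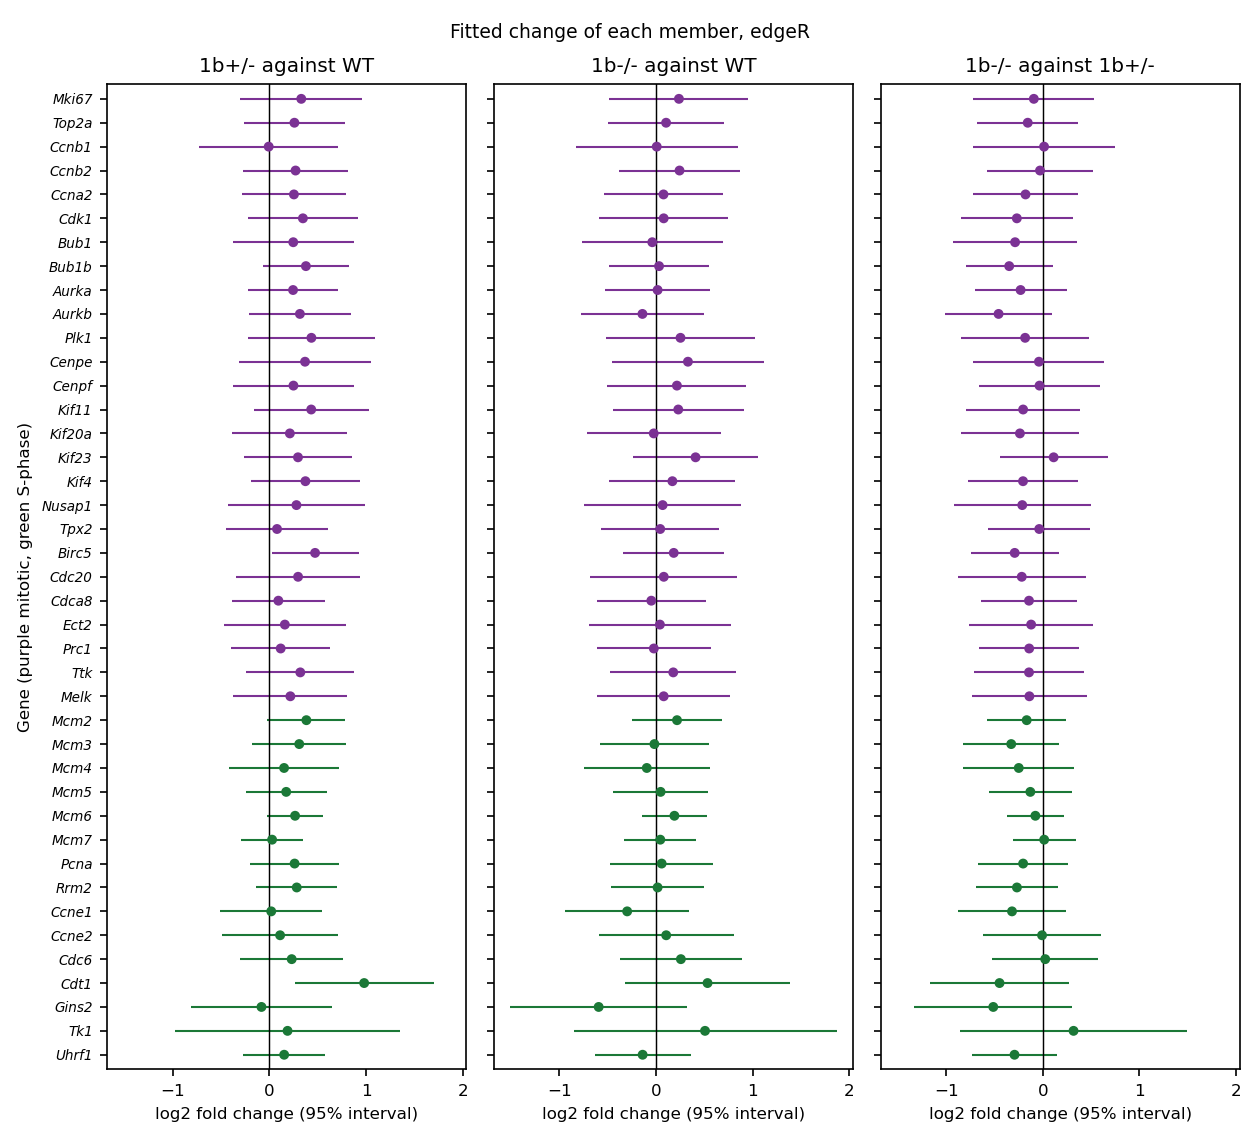
Fitted log2 fold change of each of the 41 genes with its 95% interval (lines) in the 3 genotype comparisons, mitotic genes in purple above S-phase genes in green. Only the intervals of Birc5 and Cdt1 in 1b+/- against WT leave 0 out, and neither passed the adjusted threshold.

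The intervals say how large a difference could have been missed. The 95% interval lay within a 2-fold change in either direction for 36 of 41 genes in 1b+/- against WT, 35 of 41 in 1b-/- against WT and 37 of 41 in 1b-/- against 1b+/-. The genes with wider intervals were *Plk1*, *Cenpe*, *Kif11*, *Cdt1* and *Tk1* in the first, *Plk1*, *Cenpe*, *Kif23*, *Cdt1*, *Gins2* and *Tk1* in the second and *Aurkb*, *Cdt1*, *Gins2* and *Tk1* in the last. These are intervals of single genes, not adjusted for the number of genes.

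Most fitted differences between 1b+/- and WT were above 0, although 1b+/- replicate 1 had the lowest sums of both phases. Against WT, 25 of 26 mitotic and 14 of 15 S-phase genes had a fitted log2 fold change above 0, with medians of 0.28 and 0.19 beside 0.01 over all genes. Without 1b+/- replicate 2, 17 of 26 and 10 of 15 were above 0, with medians of 0.07 and 0.14, and the mitotic median was 0.41 without 1b+/- replicate 1. Between 1b-/- and WT, 21 of 26 and 10 of 15 were above 0, with medians of 0.08 and 0.05 beside -0.01 over all genes, and the mitotic median was -0.11 without 1b-/- replicate 1 and 0.27 without 1b-/- replicate 2. Of the log2 fold changes of 1b-/- against 1b+/-, 2 of 26 and 3 of 15 were above 0, with medians of -0.17 and -0.20 beside -0.004 over all genes. Here the mitotic median was 0.04 without 1b+/- replicate 2 and -0.42 without 1b-/- replicate 1. These 3 comparisons share libraries, and the genes of a phase vary together, so the counts of signs are no test.

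Few genes separated the genotypes completely. In 1b+/- against WT, every 1b+/- library was above both WT libraries for 6 of 41 genes (*Aurkb*, *Birc5*, *Bub1b*, *Cdt1*, *Mcm2* and *Mcm6*), against 6.4% of all genes, and none was below, against 5.93%. Of 41 genes, 5 had both 1b-/- mice above both WT mice, against 11.6%, and 3 had them below, against 12% of all genes. No gene had both 1b-/- mice above all 1b+/- mice, against 3.41%, and 2 of 41 (*Aurkb* and *Gins2*) had them below, against 3.98%.

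The larger differences were between mice of the same genotype. The 26 mitotic genes summed to 1642 and 1492 CPM in WT, to 1258, 2689, 1745 and 1884 CPM in 1b+/- replicates 1 to 4, and to 2014 and 1435 CPM in 1b-/-. The lowest and the highest mouse were both male 1b+/- mice, replicates 1 and 2, and lay 2.14-fold apart. In a bulk sample, more dividing cells and more RNA per dividing cell cannot be told apart. Replicate 2 exceeded replicate 1 for 26 of 26 mitotic genes, by a median of 1.98-fold, whereas it did so for 48.7% of all genes. It was the highest of the 8 libraries for 22 of 26 mitotic genes, against 18.4% of all genes, and replicate 1 was the lowest for 13 of 26, against 15.1%.

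The S-phase genes varied less. They summed to 438 and 424 CPM in WT, to 412, 588, 470 and 529 CPM in 1b+/- and to 464 and 416 CPM in 1b-/-, a 1.43-fold range. Replicate 2 of 1b+/- was above replicate 1 for 13 of 15, by a median of 1.41-fold, and *Ccne1* and *Gins2* were the exceptions. It was the highest library for 7 of 15 S-phase genes, and replicate 4, the shallowest library, for 6. The median fold between the highest and the lowest library was 2.12 for the mitotic genes, 1.66 for the S-phase genes and 1.72 for all genes. *Mcm7* and *Mcm6* were the steadiest of the 41, at 1.25-fold and 1.32-fold, and *Aurka*, a spindle pole kinase, was the steadiest mitotic gene at 1.64-fold.

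**Figure D3:**
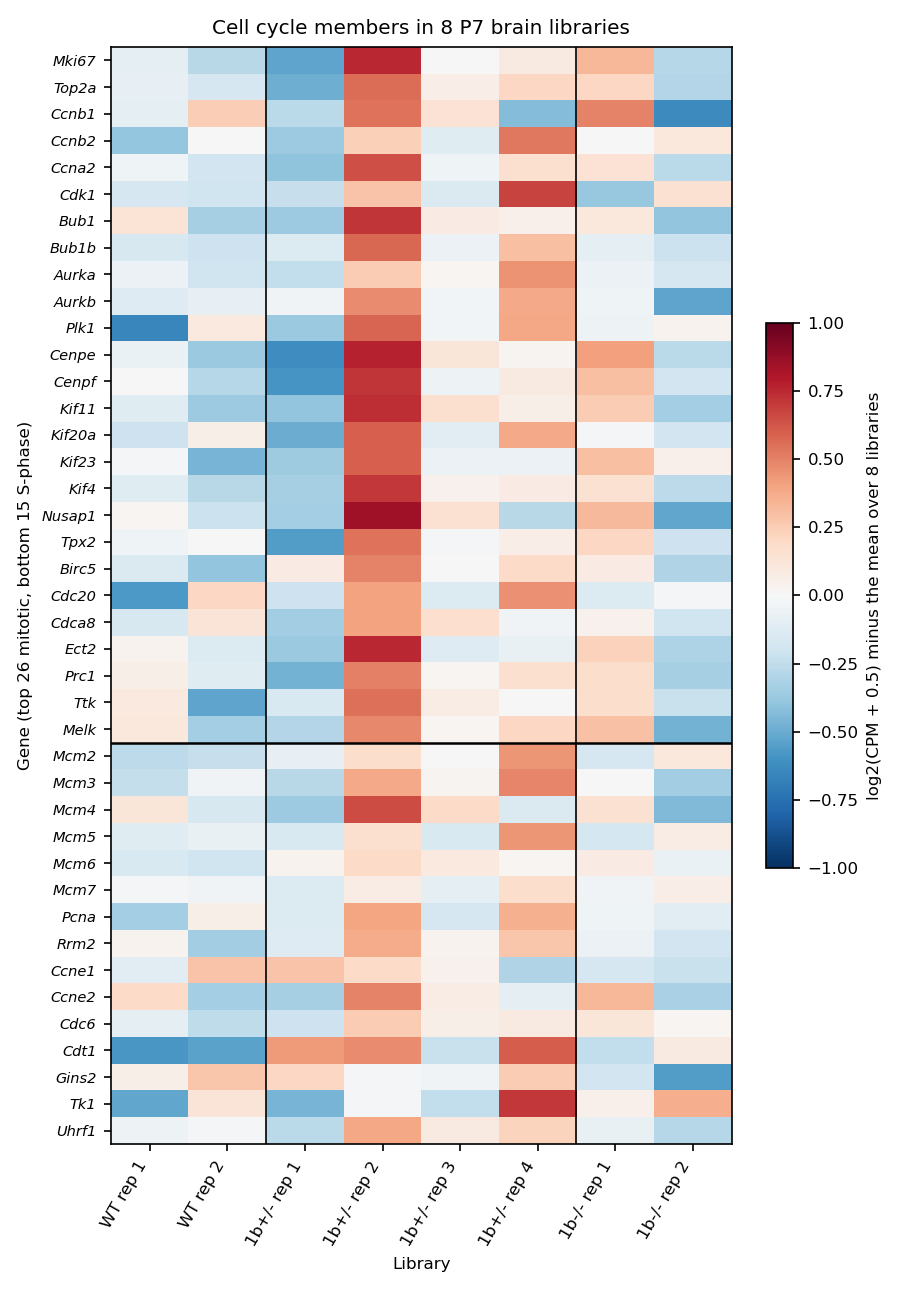
Level of each of the 41 genes in each library, as log2(CPM + 0.5) minus the mean of that gene over the 8 libraries. Replicate 2 of 1b+/- is red for all 26 mitotic genes, replicate 1 is blue for most of them, and most S-phase rows are paler, with Cdt1 and Tk1 as exceptions.

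**Figure D4:**
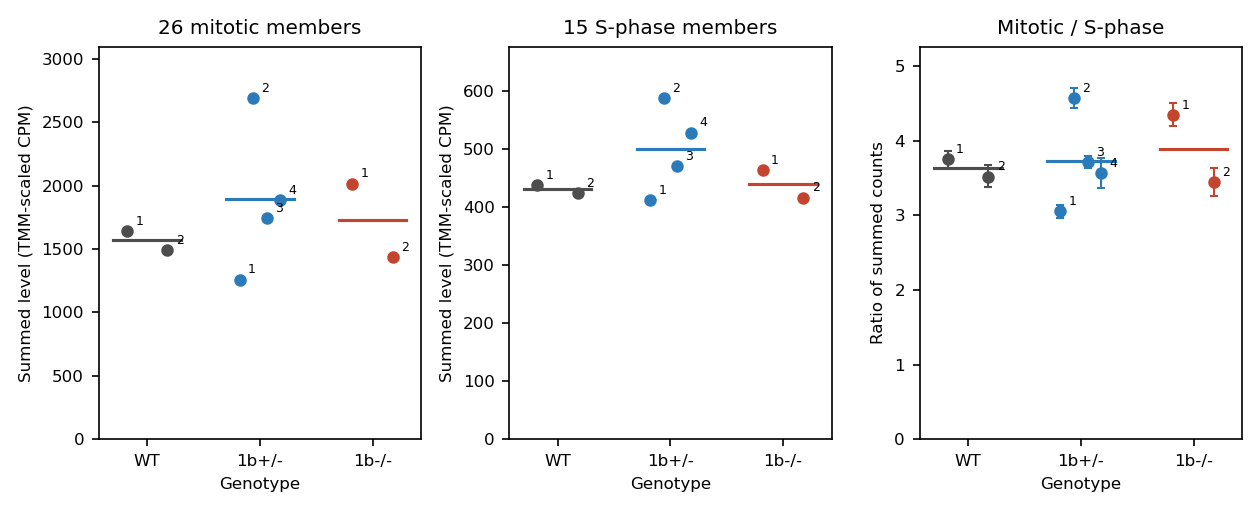
Summed CPM of the 26 mitotic and the 15 S-phase genes and their ratio in each mouse (points, numbered by replicate), with the mean of each genotype (line). Error bars on the ratio are 95% Wilson intervals of the counts. The 4 1b+/- mice span 1258 to 2689 CPM for the mitotic sum, around the values of WT and 1b-/-.

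The ratio of mitotic to S-phase counts needs no scaling between libraries. It was 3.75 and 3.52 in WT, 3.06, 4.57, 3.71 and 3.57 in 1b+/-, and 4.35 and 3.45 in 1b-/-. The genotype means were 3.64 ± 0.163 (SD, n = 2), 3.73 ± 0.631 (SD, n = 4) and 3.90 ± 0.636 (SD, n = 2), and the genotypes overlapped. The 95% Wilson intervals were 4.45 to 4.71 in 1b+/- replicate 2 and 2.97 to 3.14 in replicate 1, and cover counting error only. The mitotic sum is the numerator of the ratio, so the extremes of both are not independent. The size of the ratio depends on the genes summed, as *Mki67* and *Top2a* alone were 377 and 295 CPM on average. Over 37 other mitotic and 38 other S-phase genes it was 0.699 ± 0.0179 (SD, n = 2) in WT, 0.789 ± 0.0990 (SD, n = 4) in 1b+/- and 0.773 ± 0.0768 (SD, n = 2) in 1b-/-, where 1b+/- replicate 2 was the highest at 0.928 and WT replicate 2 the lowest at 0.687, below 1b+/- replicate 1 at 0.697.

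Among the mitotic genes, *Mki67* (chr7:142881471-142908062, minus strand, mm9) was 343 and 300 CPM in WT, 252, 613, 365 and 387 CPM in 1b+/- and 459 and 298 CPM in 1b-/-. The 1b+/- values lay on both sides of all the others. Its log2 fold change was 0.33 ± 0.29 (SE) in 1b+/- and 0.24 ± 0.33 (SE) in 1b-/- against WT, and the former was 0.05 without 1b+/- replicate 2. *Top2a*, the topoisomerase that untangles chromosomes before they separate, followed the same order of libraries at the extremes, with 272 and 256 CPM in WT, 205, 424, 302 and 333 CPM in 1b+/- and 332 and 234 CPM in 1b-/-. Its log2 fold changes against WT were 0.26 ± 0.24 (SE) and 0.10 ± 0.28 (SE). The highest 1b+/- mouse had 2.07 times the *Top2a* level of the lowest.

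*Ccnb1* was 11.6 and 14.7 CPM in WT, 10.2, 18.2, 13.7 and 9.01 CPM in 1b+/- and 17.6 and 7.76 CPM in 1b-/-. The pair of 1b-/- mice differed more than the genotype means, and the log2 fold changes against WT were -0.01 ± 0.33 (SE) in 1b+/- and 0.01 ± 0.38 (SE) in 1b-/-. *Cdk1* was 21.3 and 20.8 CPM in WT, 20.4, 29.3, 21.7 and 38.7 CPM in 1b+/- and 18.4 and 26.8 CPM in 1b-/-. Here the highest mouse was 1b+/- replicate 4 and not replicate 2, and the log2 fold changes against WT were 0.35 ± 0.26 (SE) and 0.08 ± 0.31 (SE). *Ccnb2*, *Aurka* and *Cdc20*, an activator of the anaphase-promoting complex, also peaked in replicate 4.

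The mitotic genes with the largest fitted differences between 1b+/- and WT were *Birc5*, *Plk1* and *Kif11*. *Birc5*, which encodes survivin of the chromosomal passenger complex, was 18.1 and 15.2 CPM in WT, 21.4, 28.6, 20 and 23.0 CPM in 1b+/- and 21.3 and 16.3 CPM in 1b-/-. All 4 1b+/- mice exceeded both WT mice (log2 fold change 0.47 ± 0.21 SE, adjusted p = 0.9999, edgeR quasi-likelihood). *Plk1*, a kinase of mitotic entry and spindle assembly, was 8.35 and 14.4 CPM in WT, 10.3, 20.4, 13.2 and 17.7 CPM in 1b+/- and 13 and 13.8 CPM in 1b-/-. Its log2 fold change of 0.44 ± 0.30 (SE) in 1b+/- became 0.07 without WT replicate 1 and 0.86 without WT replicate 2. *Kif11*, the kinesin that pushes spindle poles apart, was 75.4 and 63.8 CPM in WT, 62.2, 137, 91.5 and 85.5 CPM in 1b+/- and 97.9 and 64.6 CPM in 1b-/-. The difference of 0.43 ± 0.27 (SE) on the log2 scale was 0.19 without 1b+/- replicate 2.

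The largest mitotic differences between 1b-/- and WT were those of *Kif23*, *Cenpe* and *Plk1*. *Kif23*, a kinesin of the midbody, was 29.4 and 21.3 CPM in WT, 23.0, 45.2, 28.5 and 28.4 CPM in 1b+/- and 36.6 and 30.8 CPM in 1b-/-. Both 1b-/- mice were above both WT mice (log2 fold change 0.41 ± 0.30 SE, adjusted p = 1, edgeR quasi-likelihood) and 1 of the 1b+/- mice was higher still. *Cenpe*, a kinetochore motor, was 79.5 and 64.5 CPM in WT, 54.3, 143, 90.8 and 85.1 CPM in 1b+/- and 111 and 69.1 CPM in 1b-/-. Its 1b+/- mice spanned 2.63-fold, the widest range of any mitotic gene, and its log2 fold change in 1b-/- was 0.33 ± 0.36 (SE). That value was 0.62 without 1b-/- replicate 2 and -0.06 without 1b-/- replicate 1. For *Plk1* the log2 fold change was 0.25 ± 0.35 (SE).

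Between 1b-/- and 1b+/- they were *Aurkb*, *Bub1b* and *Birc5*. *Aurkb*, the kinase of the chromosomal passenger complex, was 8.76 and 9.04 CPM in WT, 9.37, 13.5, 9.40 and 12.7 CPM in 1b+/- and 9.30 and 6.51 CPM in 1b-/-. Both 1b-/- mice were below all 1b+/- mice, 1 of them narrowly, and the log2 fold change was -0.46 ± 0.26 (SE, adjusted p = 1, edgeR quasi-likelihood). It was -0.25 without 1b-/- replicate 2 and -0.77 without 1b-/- replicate 1. *Bub1b*, a spindle checkpoint kinase, was 46.2 and 44.6 CPM in WT, 46.8, 77.3, 49.4 and 63.8 CPM in 1b+/- and 48.4 and 44.3 CPM in 1b-/-. Its difference was -0.35 ± 0.21 (SE) on the log2 scale, and that of *Birc5* was -0.29 ± 0.21 (SE).

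The other mitotic genes were the kinesins *Kif20a* and *Kif4*, *Cenpf*, *Nusap1*, *Tpx2*, *Cdca8*, *Ect2*, *Prc1*, *Bub1*, *Ttk*, *Melk*, the cyclins *Ccna2* and *Ccnb2*, *Aurka* and *Cdc20*. Most serve the kinetochore, spindle, checkpoint or cytokinesis. None of these other genes passed the threshold in any comparison, and their ranges over the 8 mice ran from 1.64-fold (*Aurka*) to 2.61-fold (*Nusap1*). *Nusap1*, a spindle protein, was 55.3 and 46.9 CPM in WT, 43.0, 98.6, 60.7 and 44.7 CPM in 1b+/- and 68.3 and 37.8 CPM in 1b-/-, with a value in 1b+/- replicate 2 well above every other mouse. It is named for its range, after its values were seen.

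Of the S-phase genes, *Mcm2* was 27.3 and 27.9 CPM in WT, 31.0, 37.0, 32.9 and 44.7 CPM in 1b+/- and 29.1 and 35.3 CPM in 1b-/-. Both mutant groups lay above WT, by a log2 fold change of 0.38 ± 0.19 (SE) in 1b+/- and 0.22 ± 0.21 (SE) in 1b-/- (adjusted p = 0.9999 and 1, edgeR quasi-likelihood). The WT mice were male and the 1b-/- mice female, so the value in 1b-/- cannot be told apart from sex. With sex as a covariate it was 0.045. *Pcna* was 30.9 and 40.9 CPM in WT, 35.6, 51.9, 35 and 50.4 CPM in 1b+/- and 38.1 and 36.3 CPM in 1b-/-. The WT mice spanned the 1b-/- mice, and the log2 fold changes were 0.26 ± 0.21 (SE) and 0.06 ± 0.24 (SE). *Rrm2*, the regulated subunit of ribonucleotide reductase, was 36.8 and 28.0 CPM in WT, 32.7, 46.6, 36.7 and 43.4 CPM in 1b+/- and 34.4 and 31.3 CPM in 1b-/-. Its log2 fold changes were 0.28 ± 0.19 (SE) and 0.02 ± 0.22 (SE), and the genotypes overlapped.

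*Ccne1*, which drives entry into S phase, went its own way. It was 6.53 and 8.73 CPM in WT, 8.78, 8.18, 7.32 and 5.68 CPM in 1b+/- and 6.24 and 6.01 CPM in 1b-/-, so that 1b+/- replicate 1, the mouse with the least mitotic RNA, was the highest and replicate 2 came below it and 1 WT mouse. The log2 fold change was 0.02 ± 0.24 (SE) in 1b+/- and -0.30 ± 0.29 (SE) in 1b-/- against WT. Both female 1b+/- mice were below both male ones (-0.34 ± 0.28 SE on the log2 scale). Of the 41 genes, 0 were higher in both females than in both males, against 12.1% of all genes, and 1 (*Ccne1*) was lower, against 14.1%. As 1b-/- mice were female and WT mice male, its lower values in 1b-/- cannot be told apart from sex, and with sex as a covariate the log2 fold change was 0.04.

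*Cdt1* (chr8:125091915-125097028, plus strand, mm9), which loads the helicase onto DNA, had the largest difference of the 41 genes. It was 2.81 and 2.91 CPM in WT, 6.14, 6.36, 3.73 and 7.01 CPM in 1b+/- and 3.67 and 4.76 CPM in 1b-/-. Every mutant mouse was above both WT mice. The log2 fold change was 0.98 ± 0.33 (SE) in 1b+/- against WT, 0.53 ± 0.39 (SE) in 1b-/- against WT and -0.45 ± 0.33 (SE) between the mutant genotypes. The edgeR quasi-likelihood test gave the first an adjusted p of 0.9999 (Benjamini-Hochberg) and 0.0117 before adjustment. Its counts were low, at 19 to 93 a library. Over 19 other settings the log2 fold change in 1b+/- ran from 0.76 to 1.18 and the adjusted p was 0.535 at the lowest. In 1b-/- against WT the log2 fold change was 0.88 with sex as a covariate. That fit takes the difference between the sexes from the 1b+/- mice alone, so this value cannot be told apart from sex either.

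*Mcm3*, another helicase subunit, was 31.0 and 35.9 CPM in WT, 30.2, 48.0, 37.4 and 51.8 CPM in 1b+/- and 36.7 and 28.8 CPM in 1b-/-. Its log2 fold change was 0.31 ± 0.22 (SE) in 1b+/- against WT and -0.33 ± 0.23 (SE) in 1b-/- against 1b+/-. *Gins2*, a subunit of the GINS part of the helicase, was 2.56 and 3.07 CPM in WT, 2.90, 2.42, 2.38 and 3.01 CPM in 1b+/- and 2.08 and 1.5 CPM in 1b-/-. Both 1b-/- mice were the lowest of the 8, with a log2 fold change of -0.59 ± 0.42 (SE) against WT and -0.51 ± 0.37 (SE) against 1b+/- (adjusted p = 1 in both, edgeR quasi-likelihood), on 6 to 49 counts. *Tk1* was 0.992 and 1.84 CPM in WT, 1.06, 1.62, 1.31 and 3.01 CPM in 1b+/- and 1.71 and 2.25 CPM in 1b-/-. Its 3.03-fold range, the widest of the 41, and its log2 fold change of 0.51 ± 0.62 (SE) in 1b-/- against WT rest on 9 to 27 counts a library. That log2 fold change was 0.014 with sex as a covariate.

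The other S-phase genes were *Mcm4*, *Mcm5*, *Mcm6*, *Mcm7*, *Ccne2*, *Cdc6* and *Uhrf1*, which maintains DNA methylation at the replication fork. None passed the threshold. *Mcm4* had the widest step of the S-phase genes between 1b+/- replicates 1 and 2, from 68.6 to 139 CPM (2.02-fold), while *Mcm7* was 46.5 and 53.9 CPM in the same mice. These 2 genes were picked after their values were seen.

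The other genes of the pathway showed the same lack of calls. Of 36 other mitotic genes tested, 0 passed in each genotype comparison, and 27 were highest in 1b+/- replicate 2. *Foxm1*, which activates the mitotic genes, was 13.7 and 16.4 CPM in WT, 14.1, 23.5, 13.1 and 20 CPM in 1b+/- and 15.8 and 15.8 CPM in 1b-/-, and *Mybl2* (B-Myb) was 1.0 to 5.15 CPM over the 8 mice with its maximum in 1b+/- replicate 2. Of 38 other S-phase genes, 0 passed and 23 were highest in that mouse. *E2f1* was 5.13 and 6.28 CPM in WT, 7.13, 10.0, 8.29 and 7.01 CPM in 1b+/- and 5.39 and 5.76 CPM in 1b-/-, and *E2f2* was 3.52 to 9.39 CPM.

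Of 8 G1 cyclins and kinases, 0 passed. *Ccnd2*, a D-type cyclin of neural progenitors, was 486 and 505 CPM in WT, 321, 794, 528 and 669 CPM in 1b+/- and 628 and 349 CPM in 1b-/-, with the same lowest and highest mice as the mitotic sum. *Ccnd1* moved less, from 59.4 to 81.5 CPM. Of 14 inhibitors and genes of cell cycle exit, 0 passed, with *Cdkn1a* (p21) at 6.97 to 15.4 CPM and lowest in 1b+/- replicate 2, and *Cdkn1b* (p27) at 223 CPM in 1b+/- replicate 1 and 451 CPM in replicate 2, again the lowest and the highest of the 8.

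Markers of cell types and regions moved with the same mice. Replicate 2 of 1b+/- had the highest summed level of the subventricular zone progenitor list (9 of 9 genes tested, 543 CPM, against 243 to 458 in the others), of the excitatory progenitor and dentate gyrus list (7 of 7, 7253 CPM, against 3824 to 6554) and of the radial glia list (10 of 10, 2128 CPM, against 1571 to 1943). Gene by gene, it was the highest library for 4 of 9, 5 of 7 and 5 of 10 of these genes. *Eomes*, of intermediate progenitors, was 220 CPM there and 62.4 CPM in replicate 1, and *Neurog2* was 112 and 26.6 CPM. *Dlx2* was 63.0 and 24.2 CPM in the same mice, whereas *Sox2* (90.2 and 69.0 CPM) and *Nes* (326 and 208 CPM) differed less. Both *Sox2* and *Nes* were highest in 1b+/- replicate 4, at 110 and 426 CPM. The mature neuron sum of replicate 2 was the lowest of the 8 (8 of 8 genes tested, 2757 CPM, against 3184 to 4017), but replicate 2 was the lowest library for 3 of the 8 genes, as was replicate 1. *Snap25* (377 CPM, 301 to 448 in the others) and *Syt1* (332 CPM, 295 to 390) were lower in replicate 1.

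Other tissue moved with these mice too. Replicate 2 of 1b+/- had the lowest choroid plexus sum (8 of 8 genes, 29.1 CPM, against 188 to 1049), with *Ttr* at 6.77 CPM and *Folr1* at 0.606 CPM, and the highest cerebellar granule cell precursor sum (8 genes, 7 of them tested, 465 CPM, against 217 to 381), although the defining *Atoh1* was at 0.202 CPM there, and at 0 in 4 of the others, and *Barhl1* was at 3.54 CPM. Replicate 1 had the highest midbrain and hindbrain sum (10 genes, 8 of them tested, 57.1 CPM, against 9.55 to 18.2), with *En1* at 10.3 and *En2* at 15.6 CPM, *Barhl1* at 14.3 CPM and *Atoh1* at 4.16 CPM. It also had the highest meningeal and mural sum (8 of 8 genes, 2054 CPM, against 633 to 1230, *Col1a1* at 380 and *Col1a2* at 539 CPM) and the lowest forebrain and hippocampal sum (10 of 10 genes, 2413 CPM, against 2889 to 4337). The part of these tissues in the cell cycle differences was not tested. Without replicates 1 and 2 of 1b+/-, the median log2 fold change in 1b+/- against WT was 0.22 for the mitotic genes (24 of 26 above 0) and 0.24 for the S-phase genes (13 of 15 above 0), and 0 of 41 genes passed, as with all libraries. Both omitted mice were the male ones of 1b+/-, so female 1b+/- mice were set against male WT mice. Genotype and sex cannot be told apart in that fit, and replicate 4, the shallowest library, was among those kept.

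The remaining lists had their highest sums elsewhere. Oligodendrocyte precursor genes (8 of 8) summed to 159 to 242 CPM, highest in 1b+/- replicate 1 and 160 CPM in replicate 2, with *Pdgfra* at 88.0 to 130 CPM and *Cspg4* at 7.69 to 15.5 CPM. Microglia genes (8 of 8) summed to 51.5 to 80.6 CPM, also highest in that mouse, with *Cx3cr1* at 7.11 to 13 and *Csf1r* at 11.7 to 19.3 CPM. Endothelial genes (7 of 7) were highest in 1b+/- replicate 4, at 225 to 359 CPM in all, with *Cldn5* at 16.9 to 47.1 and *Pecam1* at 38.3 to 57.8 CPM. Erythroid genes (6 of 7 found, 4 of them tested) were highest in WT replicate 1, at 36.7 to 96.1 CPM in all, with *Alas2* at 26.8 to 74.4 and *Slc4a1* at 3.06 to 7.20 CPM. Epithelial genes (10 of 10) summed to 164 and 43.4 CPM in WT and to 2.08 to 8.59 CPM in the 6 mutant mice. In 1b+/- against WT, 8 of these 10 were lower (*Krt8*, *Krt19*, *Krt6a*, *Krt13*, *Krt15*, *Msln*, *Upk1b* and *Upk3b*), which made up 8 of the 13 genes called in that comparison. The WT libraries, with which the cell cycle genes were compared, thus held more epithelial RNA than the others, and its part in those comparisons was not tested.

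**Figure D5:**
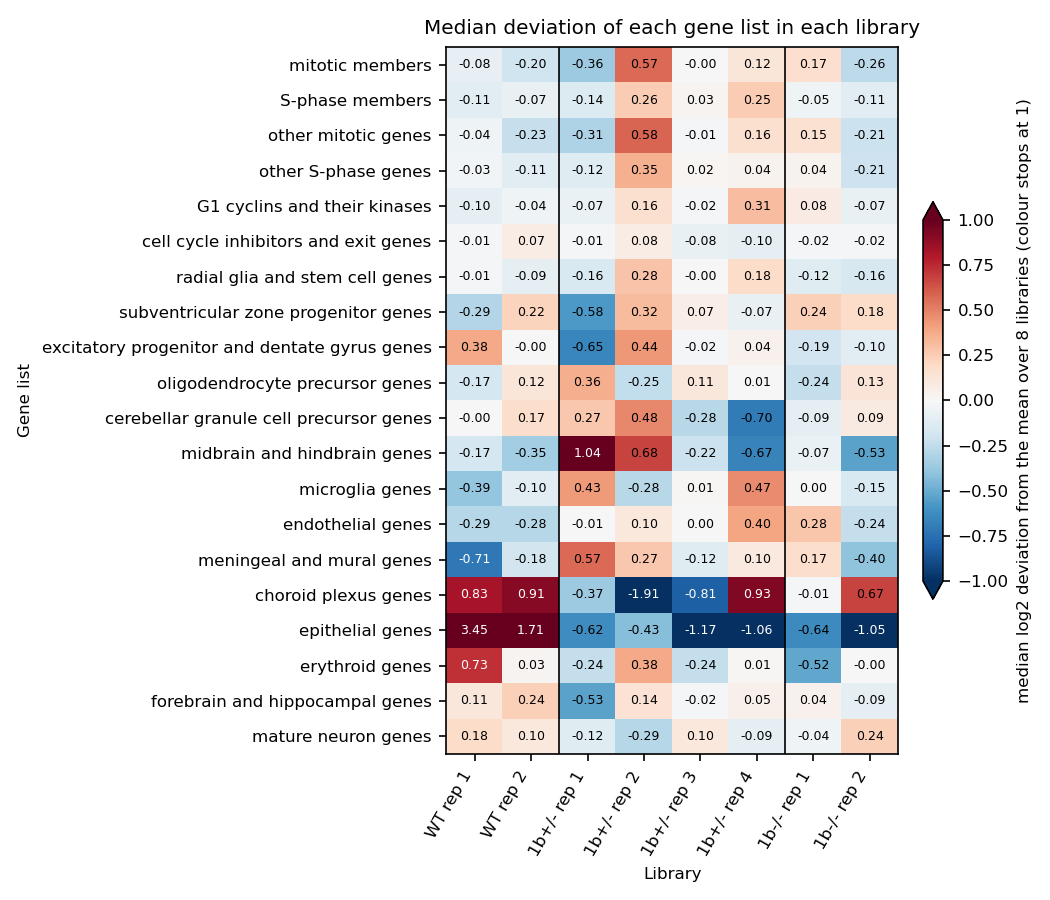
Median deviation of each gene list in each library, on the log2 scale, from the mean over the 8 libraries. Other mitotic genes repeat the pattern of the mitotic genes, 0.58 in 1b+/- replicate 2 and -0.31 in replicate 1, and the subventricular and excitatory progenitor lists are high in replicate 2. Oligodendrocyte precursor genes are lowest in replicate 2 (-0.25) and highest in replicate 1 (0.36), and choroid plexus genes are at -1.91 in replicate 2.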

How the data were processed

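Messenger RNA was measured in 8 libraries, each from 1 P7 mouse, with groups taken from the sample labels. According to the methods, the authors prepared stranded poly(A) libraries, aligned single-end reads to mm9 with STAR (version 2.7.2 in the submitters' processing notes) and obtained the deposited counts, whole numbers per gene symbol, with featureCounts. Use of strand, annotation and treatment of reads with several matches are not given in the sources used here, so genes with near-identical copies, such as *Ccnb1* and *Pcna*, and overlapping genes are uncertain. The 1572 entries with no count played no part in the tests.

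Tests were limited to the 15588 genes that reached 1 CPM in 1 library or more. The quasi-likelihood test of edgeR 4.0.16 (R 4.3.3) with TMM scaling was fitted to all 8 libraries with genotype as the only factor, and p-values were adjusted over all genes by the Benjamini-Hochberg method at 0.05. Genotypes and, in a separate fit, the number of deleted alleles and the sexes within 1b+/- were compared. Phases were described by sums, medians and ratios without a test. Replicate numbers follow the order of deposition. Nothing says more than that the mice were separate, so p-values measure the spread between these libraries.

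The members and gene lists were chosen with earlier results of these data known. Values in every library were given for *Mki67*, *Top2a*, *Ccnb1*, *Cdk1*, *Mcm2*, *Pcna*, *Rrm2*, *Ccne1* and, per comparison, the 3 mitotic and 3 S-phase genes with the largest fitted change, and of every other list the leading 2 genes were named, except 2 that are not reported here. Exon lengths and gene positions came from GENCODE vM1 (mm9), and promoters from RefSeq (GRCm38.p6). These builds differ and their coordinates were not mixed. No promoter was matched for *Ccna2*, *Aurkb*, *Kif20a*, *Tpx2*, *Mcm4*, *Ccne2* and *Gins2*. The last 35 bases of the promoter were found in a transcript of the gene, on the same strand, for 29 of 34 genes and on the opposite strand for 0.

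Alternatives were other filters, scalings and tests (DESeq2 1.42.0 among them), sex as a covariate, fits of the compared genotypes or of 1 sex, and omission of each library. Omission of 1b+/- replicates 1 and 2 together was chosen after seeing the data. If 1 mouse was left in a group, it was assumed to vary like the other groups. The fit was checked on simulated data for 1b-/- against WT. It recovered 128 of 300 genes with a log2 change of 1 and 259 of 300 with a log2 change of 2. Of 411 calls, 24 were false, and smaller changes were not simulated.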

Additional observations from a re-analysis of the deposited data

Results flagged for a closer look

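Among the 4 1b+/- mice, the gap between an extreme value and its neighbour was examined for 44 measures (the 41 genes, the sums of both phases and their ratio). It passed the 95% critical value of Dixon for 0 of them, where chance gives about 1 in 20. *Ect2*, a regulator of cytokinesis, came nearest, with a gap of 0.808 of its range between 60.4 CPM in replicate 2 and 33.7 CPM in the next mouse.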

How the results depend on the processing

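Of the 41 genes, 0 passed the threshold in any of the 5 comparisons under any alternative run, with the smallest adjusted p at 0.535 for *Cdt1* in 1b+/- against WT (edgeR likelihood ratio test). Omission of 1b+/- replicate 1 gave the most unadjusted p-values under 0.05 (edgeR quasi-likelihood test) in 2 genotype comparisons. There were 9 such genes when 1b+/- mice were compared with WT mice. When 1b-/- mice were compared with 1b+/- mice, there were 3. The share of all genes under this setting is not given, so these counts have no background beside them. The sexes within 1b+/- cannot be judged without replicate 1. Replicate 2, the highest library for 22 of 26 mitotic genes, is then the only male. Of 218 alternatives of counts, medians and ratios, 212 moved the value by less than the spread between replicates. The other 6 concern the ratio of mitotic to S-phase RNA, which as a ratio of medians over genes was 0.923 in WT, 0.857 in 1b+/- and 1.01 in 1b-/-, and over the other mitotic and S-phase lists 0.699, 0.789 and 0.773. Both alternatives sum or rank other genes by construction, and the order of 1b+/- among the genotypes changed with them. The 212 are a weak check. Counts of genes past the threshold, which are among them, were 0 in every setting. For the mitotic medians the pooled SD within genotype was 0.328 on the log2 scale. It was larger in size than each of these medians with all libraries, so even a change of sign could fall within it.

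When each library was omitted in turn, the ratio ran from 3.52 to 3.75 in WT, from 3.44 to 3.95 in 1b+/- and from 3.45 to 4.35 in 1b-/-. The median log2 fold change of the S-phase genes was 0.14 to 0.29 in 1b+/- against WT, 0.02 to 0.09 in 1b-/- against WT and -0.25 to -0.09 in 1b-/- against 1b+/-, and that of the mitotic genes changed sign in the latter 2. For the genes with values in every library, 728 alternatives kept the sign and 37 did not, with none past the threshold under either. In 1b+/- against WT the log2 fold change of *Ccnb1* was 0.065 with library totals, 0.107 with sex as a covariate, 0.027 with upper quartile scaling and 0.115 in males alone, and with a library omitted it ran from -0.22 to 0.17, that of *Ccne1* from -0.19 to 0.23. Between 1b-/- and 1b+/-, *Ccnb1* was -0.032 with library totals and *Mki67* 0.012 with sex as a covariate, 0.017 in females alone and 0.016 without 1b+/- replicates 1 and 2, and with a library omitted *Ccnb1* ran from -0.74 to 0.44, *Mki67* from -0.44 to 0.19 and *Top2a* from -0.43 to 0.072. In 1b-/- against WT, *Ccnb1* was -0.006 with DESeq2, -0.012 with the likelihood ratio test and -0.008 without a filter, *Ccne1* was 0.04 and *Cdk1* -0.16 with sex as a covariate, and with a library omitted *Ccnb1* ran from -0.75 to 0.43, *Cenpe* from -0.064 to 0.62, *Mki67* from -0.11 to 0.51, *Rrm2* from -0.16 to 0.23, *Top2a* from -0.17 to 0.33, *Cdk1* from -0.20 to 0.34, *Pcna* from -0.14 to 0.27 and *Plk1* from -0.11 to 0.68. The cause was not tested. With library totals in place of scaling factors the medians in 1b+/- against WT were 0.35 for the mitotic and 0.27 for the S-phase genes.

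No paired analysis was possible because the replicate numbers were given in the order of deposition and pair no mice. With 2 WT and 2 1b-/- mice, 2947770 counts in the shallowest library and sex confounded with genotype, differences of 2-fold or less were mostly not detectable.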

Other observations

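Exon length differed between the mitotic genes that peaked in different mice, and little between the S-phase genes that did. The 10 cell cycle genes that were highest in 1b+/- replicate 4, the shallowest library, had a median exon length of 3180 bp, against 4217 bp for the other 31. Among the mitotic genes the 4 that peaked there (*Ccnb2*, *Cdk1*, *Aurka* and *Cdc20*) had a median of 2200 bp, against 4316 bp for the other 22. Among the S-phase genes the 6 that peaked there had a median of 3434 bp, against 3589 bp for the other 9. The log2 ratio of replicate 4 to replicate 2 had a Spearman correlation with exon length of -0.443 across the 41 genes and of -0.138 across 14431 genes. These correlations are across genes, which share 2 libraries and are no independent replicates, and the cause was not tested.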
